A study of Homo sapiens with 12 samples.

Results

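The genes described here, DDIAS apart, carry the repair of DNA breaks, the checkpoint that halts the cell cycle while DNA is damaged, and the Fanconi pathway that unhooks DNA crosslinks. With DDIAS, the damage-induced apoptosis suppressor, they are a list of 37 gene symbols, drawn up with earlier results of these data known. Of the 37, 32 had a probe set that is annotated to no other gene. All 32 exceeded a log2 value of 4 in every array, the lowest single value being 4.05, and all entered the test among 10574 tested genes of 19775 with such a probe set. Where a gene had several such probe sets, the brightest on average was taken. BRCA2, FANCA, FANCD2, RBBP8 and ATRIP had no such probe set in the annotation used and were not analysed here.

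HK-2 is an immortalised line of human proximal tubule epithelium, the kidney segment that reabsorbs most of the filtrate. The study exposed HK-2 cultures to a high dose of Kbr, which the labels give without a concentration, or to vehicle, as part of a search for expression signatures of kidney toxicity. RNA was measured on 12 Affymetrix arrays, 3 biological replicates for each of 4 groups: cultures with Kbr for 24 h and their vehicle controls, and cultures with Kbr for 48 h and their vehicle controls. All 4 groups were grown in the same defined medium and treated near confluence, and the line is a single immortalised line, so the replicates are cultures and not donors.

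Breaks are sensed by the MRE11-RAD50-NBN complex, which activates the kinase ATM, and stretches of single-stranded DNA activate the kinase ATR with its partners TOPBP1 and CLSPN. These kinases switch on CHEK1 and CHEK2, which restrain the cell cycle. Nucleases and helicases such as EXO1 and BLM trim the ends, the BRCA proteins prepare them for strand exchange with an intact copy, and the Fanconi core complex tags the FANCD2-FANCI pair with ubiquitin at crosslinks. Many of these genes are transcribed most in cells that are copying their DNA.

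The promoters of 5 members are shown, chosen by the size of their called changes. DDIAS, EXO1 and BLM had the 3 largest called differences between the Kbr effects at 48 h and 24 h, and ATM and FANCL had the 2 largest falls at 48 h. Each line gives the 250 bases before the first start that RefSeq lists, on the gene's strand, from RefSeq with build GRCh38.p14, in which 29 of the 32 members were matched. They lie at chr11:82901486-82901735 (DDIAS, plus strand), chr1:241847954-241848203 (EXO1, plus strand), chr15:90717096-90717345 (BLM, plus strand), chr11:108222817-108223066 (ATM, plus strand) and chr2:58241326-58241575 (FANCL, minus strand). Capitals mark the CCAAT box (CCAAT or ATTGG), the E2F core (TTCCCGC or TTGGCGC or TTCGCGC or TTGCCGC on either strand) and the CHR element (TTTGAA or TTCAAA).
DDIAS: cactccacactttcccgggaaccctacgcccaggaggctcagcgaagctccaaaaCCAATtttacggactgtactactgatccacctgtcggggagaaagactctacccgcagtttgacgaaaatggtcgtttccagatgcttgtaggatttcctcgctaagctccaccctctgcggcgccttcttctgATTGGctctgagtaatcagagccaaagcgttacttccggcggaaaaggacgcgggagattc
EXO1: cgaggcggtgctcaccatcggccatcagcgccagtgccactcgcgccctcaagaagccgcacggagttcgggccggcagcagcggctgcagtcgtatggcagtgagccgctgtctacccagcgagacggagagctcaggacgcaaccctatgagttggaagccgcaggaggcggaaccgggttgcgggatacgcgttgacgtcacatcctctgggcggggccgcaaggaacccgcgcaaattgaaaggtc
BLM: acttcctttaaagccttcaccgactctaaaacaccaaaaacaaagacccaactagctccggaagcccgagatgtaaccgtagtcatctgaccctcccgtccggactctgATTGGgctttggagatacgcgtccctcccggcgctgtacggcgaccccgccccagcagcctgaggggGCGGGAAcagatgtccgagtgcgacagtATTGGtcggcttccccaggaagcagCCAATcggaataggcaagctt
ATM: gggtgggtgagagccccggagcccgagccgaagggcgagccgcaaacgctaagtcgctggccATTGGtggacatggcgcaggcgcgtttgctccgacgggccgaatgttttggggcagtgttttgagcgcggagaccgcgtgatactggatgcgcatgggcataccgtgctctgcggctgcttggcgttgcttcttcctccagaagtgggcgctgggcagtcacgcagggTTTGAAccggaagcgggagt
FANCL: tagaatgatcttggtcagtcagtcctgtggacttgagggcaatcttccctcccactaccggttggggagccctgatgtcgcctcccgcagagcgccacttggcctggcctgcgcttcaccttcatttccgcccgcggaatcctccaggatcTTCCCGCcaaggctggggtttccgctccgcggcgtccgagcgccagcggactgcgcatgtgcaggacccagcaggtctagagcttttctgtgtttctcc
DDIAS held a CCAAT box on each strand, at 195 and 61 bases before the start, and BLM held 3 of them beside an E2F core at 74 bases. ATM held 1 CCAAT box and a CHR element at 20 bases, FANCL held an E2F core at 99 bases, and the letters searched were not in the EXO1 window. No marked match shares bases with another.

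Over the 29 matched members, 16 promoters (55.2%) held a CCAAT box, against 35.8% of the 8774 matched tested genes. The E2F core was in 8 of 29 (27.6%), against 18.2%, and the CHR element in 4 of 29 (13.8%), against 8.31%. Of the 12 matched members that were higher with Kbr at 48 h, 8 held a CCAAT box, 4 an E2F core and 0 a CHR element. Of the 7 matched members that were lower, 4 held a CCAAT box, 3 an E2F core and 4 a CHR element (BRIP1, ATM, FANCC and MDC1). The antioxidant response core (TGACNNNGC on either strand) was in 0 of 29 member promoters and in 12.4% of those of tested genes. These are matches of letters in a fixed window, with no test.

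The arrays were alike in scale. Their median log2 values lay between 2.889 and 2.964, and between 39.1% and 39.9% of probe sets exceeded 4. The root mean square deviation from the group mean over all tested genes was 0.164 to 0.228 in 11 arrays and 0.290 in Kbr 48 h replicate 3, which read below its group mean in 24 of the 32 members, as did Kbr 24 h replicate 3 (control 48 h replicate 1 did so in 22). No count of members at 48 h moved by over 1.5 times without that array, while the count in the test between times did, as given there. Of 12 proximal tubule markers, SLC3A1, GATM and CDH6 passed the filter, while the defining transporters and receptors LRP2, CUBN, SLC34A1 and SLC5A2 did not. Of 8 kidney epithelial markers, 7 passed, keratins KRT8 and KRT18 among them.

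With Kbr, members were called in both directions, and at 48 h more of them rose than fell. At 48 h, 13 of 32 members rose and 8 fell, where 26.9% of all tested genes rose and 32.8% fell (59.6% called in all). At 24 h, 6 members rose and 6 fell, where 12.4% of all tested genes rose and 20.0% fell (32.4% called in all). The median log2 fold change of the members was 0.32 at 48 h and -0.01 at 24 h, against -0.06 over all tested genes at both times. At 48 h the members that rose were 40.6% of the list and those that fell 25%, above and below the shares of all genes, while the calls in both directions together, 21 of 32 at 48 h and 12 of 32 at 24 h, lay near theirs. At 24 h the members that rose and those that fell were 18.8% each, but the rises were 2 of 32 without Kbr 24 h replicate 2 or control 24 h replicate 1 and 3 without Kbr 24 h replicate 3. The falls at 24 h were 3 without Kbr 24 h replicate 3 or control 24 h replicate 1 or 2. Shares of all tested genes without single arrays are not given, so these lower counts cannot be set against them. Blocked on the replicate number, the fit had 15 members that rose and 10 that fell at 48 h, against 31.3% and 38.1% of all tested genes, and 6 that rose and 7 that fell at 24 h, against 18.6% and 29.4%.

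Values are log2 GCRMA values, on which a difference of 1 is a 2-fold difference; differences are means of 3 arrays against 3, with the moderated standard error (SE), and adjusted p-values come from limma over all tested genes. The 5 members that rose at both times were DDIAS, FANCB, EXO1, CLSPN and RAD51C, and the 4 that fell at both were FANCL, BRIP1, FANCF and FANCC. Another 8 rose at 48 h without a call at 24 h, and 4 fell in that way. XRCC2 rose and MRE11 and TP53BP1 fell at 24 h without a call at 48 h. No member was called in opposite directions, and 8 were called at neither time. With the block XRCC2 and MRE11 were called at 48 h as well, and BARD1 and ATR, called at neither time without it, were called at 48 h. By the arrays themselves, Kbr and control did not overlap in 10 members higher and 8 lower at 24 h (22.4% and 29.2% of all tested genes), and in 13 higher and 10 lower at 48 h (28.6% and 34.2%). In cultures measured in bulk, fewer cells of a type and less RNA per cell cannot be told apart.

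**Figure D1:**
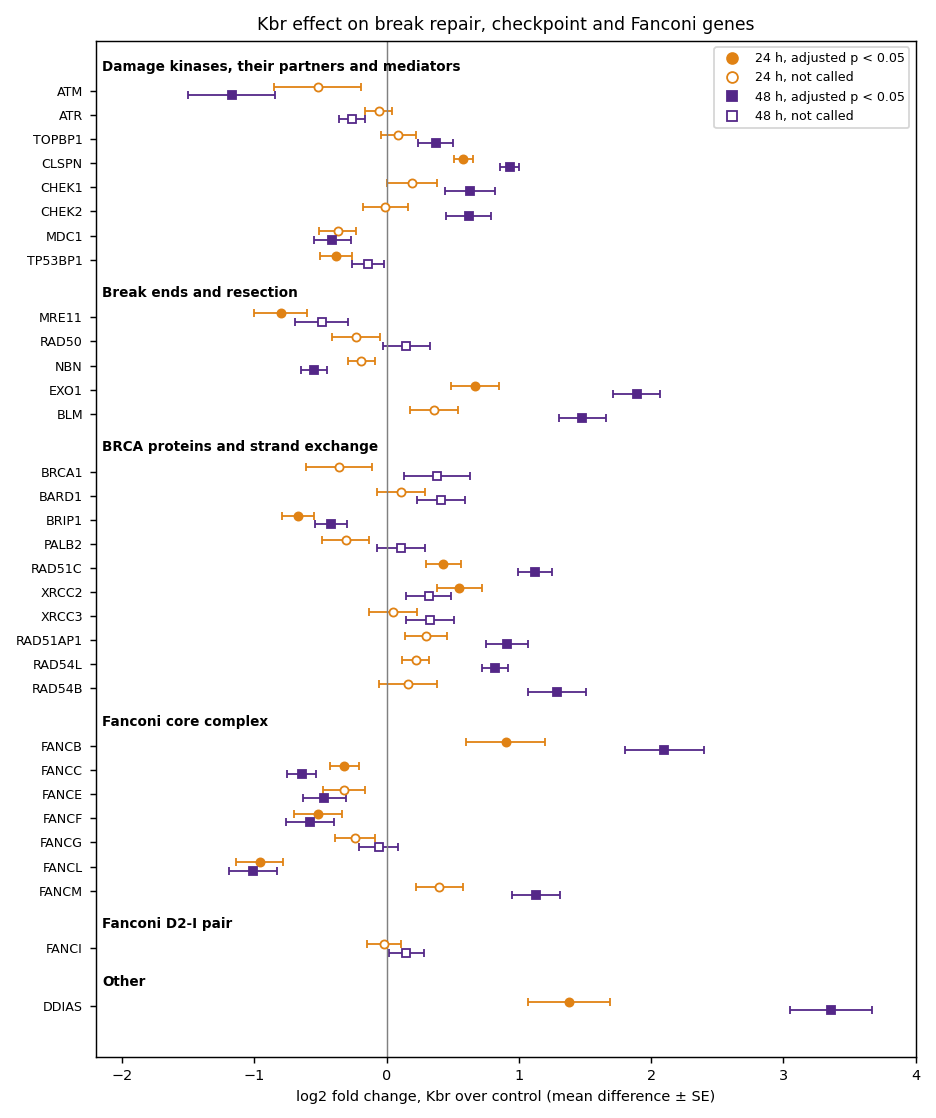
Log2 fold change of Kbr over control for the 32 members (horizontal axis, mean difference of 3 arrays against 3 with its SE), grouped by role, with circles for 24 h and squares for 48 h and filled symbols where the adjusted p was under 0.05. DDIAS lies farthest to the right at 48 h (3.36), and ATM (-1.17) and FANCL (-1.01) farthest to the left.

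DDIAS, the damage-induced apoptosis suppressor, had the largest change of all members and was placed in none of the repair, checkpoint and Fanconi role groups. Its log2 values were 8.81, 8.77 and 8.68 in Kbr cultures at 24 h, against 6.98, 7.18 and 7.97 in control cultures. At 48 h they were 9.14, 9.25 and 9.26 in Kbr cultures, against 5.26, 5.73 and 6.58 in control cultures. The Kbr arrays lay close together and above every control array at both times, while the control arrays were spread widely. DDIAS was 2.60-fold higher at 24 h (log2 1.38 ± 0.31 SE, adjusted p = 0.00666) and 10.3-fold higher at 48 h (log2 3.36 ± 0.31 SE, adjusted p = 7.36e-06).

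Among the kinases and their mediators, changes went both ways. In this and the other role groups the shares of all tested genes given above are the background (12.4% up and 20.0% down at 24 h, 26.9% up and 32.8% down at 48 h). Of 8 measured, CLSPN rose and TP53BP1 fell at 24 h, and CLSPN, CHEK1, CHEK2 and TOPBP1 rose while ATM and MDC1 fell at 48 h. CLSPN, the adaptor that carries the ATR signal to CHEK1, read 6.08, 6.15 and 6.13 with Kbr at 24 h, against 5.54, 5.51 and 5.57 in controls. Its 48 h values were 5.57, 5.61 and 5.58 with Kbr, against 4.61, 4.69 and 4.68 in controls. In the probe set used, its replicates lay close together in all 4 groups, and Kbr and control did not overlap at either time. The rise was 1.5-fold at 24 h (log2 0.58 ± 0.07 SE, adjusted p = 0.000394) and 1.90-fold at 48 h (log2 0.93 ± 0.07 SE, adjusted p = 3.45e-06). CLSPN had the lowest mean of the tested members (log2 5.48). Its sets 1553120_at and 219621_at differed by 0.53 and 0.26 at 24 h (adjusted p = 0.150 and 0.233). At 48 h they differed by 0.62 and 0.50 (adjusted p = 0.0593 and 0.0177).

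ATM, the kinase that answers to breaks, read 7.28, 7.90 and 7.24 with Kbr at 24 h, against 8.35, 8.44 and 7.21 in controls. The arrays at 48 h gave 7.61, 7.41 and 7.04 with Kbr, against 8.74, 8.74 and 8.07 in controls. The groups overlapped at 24 h, where control replicate 3 was as low as the Kbr arrays, and did not overlap at 48 h. ATM was 2.24-fold lower at 48 h (log2 -1.17 ± 0.33 SE, adjusted p = 0.00994) and had no call at 24 h (log2 -0.52 ± 0.33 SE, adjusted p = 0.245). The probe set used has the ending _x_at, which Affymetrix gives to sets that may also bind other transcripts, and ATM's other probe sets are described further on.

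The checkpoint kinases CHEK1 and CHEK2 were higher at 48 h by log2 0.63 ± 0.19 and 0.62 ± 0.17 (SE, adjusted p = 0.0154 and 0.00965), and at 24 h differed by 0.19 ± 0.19 and -0.01 ± 0.17 (adjusted p = 0.482 and 0.980). TOPBP1, which activates ATR, rose by log2 0.37 ± 0.13 at 48 h (adjusted p = 0.0269), although its Kbr and control arrays overlapped. MDC1, which binds the phosphorylated histone at breaks, was lower at 48 h by log2 -0.41 ± 0.14 (adjusted p = 0.0275). At 24 h MDC1 differed by -0.37 ± 0.14 (adjusted p = 0.0662, and 0.00247 with the replicate number as a block). TP53BP1, which holds back the trimming of ends, was lower at 24 h by log2 -0.38 ± 0.12 (adjusted p = 0.0332) and differed at 48 h by -0.14 ± 0.12 (adjusted p = 0.338). ATR itself differed by -0.06 ± 0.10 at 24 h and by -0.26 ± 0.10 at 48 h (adjusted p = 0.688 and 0.0519, the second 0.0137 with the block).

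In the fit without the block, several of these calls were lost when single arrays were left out. The CHEK1 call at 48 h was lost without Kbr 48 h replicate 2 or control 48 h replicate 1 (adjusted p = 0.0572 to 0.0593). CHEK1's other tested sets, 205394_at and 238075_at, were higher at 48 h by log2 0.75 and 0.92. Their adjusted p-values were 0.000853 and 0.000335 in a limma fit of every probe set. The TOPBP1 call at 48 h was lost without Kbr 48 h replicate 1 or 2 or control 48 h replicate 1 or 3 (0.0746 to 0.0955). MDC1 lost its 48 h call without Kbr 48 h replicate 2 or control 48 h replicate 1 (0.101 to 0.113). TP53BP1 lost its 24 h call without Kbr 24 h replicate 1 or 3 or control 24 h replicate 2 (0.0964 to 0.116), and also with quantile normalization, the mean of its probe sets or only the groups compared (0.0543 to 0.111). That mean takes in 1569097_at, which did not pass the filter. TOPBP1 was not called with only the groups compared (0.0708), nor MDC1 without the filter (0.0515).

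At the break ends, 1 of 5 measured members rose and 1 fell at 24 h (EXO1 and MRE11), and 2 rose and 1 fell at 48 h (EXO1, BLM and NBN). MRE11, the nuclease of the sensor complex, read 7.43, 7.23 and 7.01 with Kbr at 24 h, against 8.18, 8.15 and 7.75 in controls. After 48 h the values were 7.53, 7.57 and 6.84 with Kbr, against 7.83, 7.94 and 7.63 in controls. Neither pair of groups overlapped, and Kbr 48 h replicate 3 stood well below its 2 partners. MRE11 was 1.75-fold lower at 24 h (log2 -0.80 ± 0.20 SE, adjusted p = 0.0121). At 48 h its difference was -0.49 ± 0.20 (adjusted p = 0.0570, and 0.00299 with the block). The 24 h call was lost without control 24 h replicate 1 (adjusted p = 0.0503) and with the mean of MRE11's probe sets (log2 -0.22, adjusted p = 0.131). That mean takes in 211334_at and 242456_at, which averaged 3.0 and 3.52 and did not pass the filter.

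NBN, which tethers ATM to the complex, was lower at 48 h by log2 -0.55 ± 0.10 (SE, adjusted p = 0.000856) and differed by -0.19 ± 0.10 at 24 h (adjusted p = 0.189). The 48 h call was lost with the mean of NBN's probe sets (log2 -0.28, adjusted p = 0.0519), which takes in 240510_at, a set that did not pass the filter. Of the other tested sets, 202905_x_at was lower at 48 h by -0.41 (adjusted p = 0.0296). The sets 202906_s_at and 217299_s_at differed by -0.22 and -0.23 (adjusted p = 0.244 and 0.318). RAD50, the complex's ATPase, had no call at either time in the probe set used (log2 -0.23 ± 0.18 at 24 h and 0.15 ± 0.18 at 48 h, adjusted p = 0.347 and 0.490).

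EXO1, an exonuclease that extends the trimming of break ends, read 9.01, 9.24 and 9.02 with Kbr at 24 h, against 8.22, 8.37 and 8.66 in controls. Its 48 h values were 9.14, 9.51 and 9.25 with Kbr, against 7.04, 7.5 and 7.71 in controls. The Kbr arrays stayed within a narrow band at both times, above all controls. EXO1 was 1.59-fold higher at 24 h (log2 0.67 ± 0.18 SE, adjusted p = 0.0152) and 3.71-fold higher at 48 h (log2 1.89 ± 0.18 SE, adjusted p = 9.01e-06). Its 24 h call was lost without Kbr 24 h replicate 2 or control 24 h replicate 1 (adjusted p = 0.0571 to 0.0649).

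BLM, the helicase mutated in Bloom syndrome, read 8.15, 8.25 and 8.0 with Kbr at 24 h, against 7.60, 7.78 and 7.95 in controls. The arrays at 48 h gave 8.28, 8.19 and 7.95 with Kbr, against 6.25, 6.66 and 7.05 in controls. The groups were apart by a narrow margin at 24 h and by a wide one at 48 h. BLM was 2.80-fold higher at 48 h (log2 1.48 ± 0.18 SE, adjusted p = 5.19e-05) and had no call at 24 h (log2 0.36 ± 0.18 SE, adjusted p = 0.161).

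Of the 10 measured BRCA proteins and strand exchange factors, 4 rose and 1 fell at 48 h. RAD51C and XRCC2 rose and BRIP1 fell at 24 h. RAD51C, RAD51AP1, RAD54L and RAD54B rose and BRIP1 fell at 48 h. RAD51C, which acts in strand exchange, read 9.81, 10.08 and 10.03 with Kbr at 24 h, against 9.38, 9.63 and 9.63 in controls. After 48 h the values were 10.09, 10.20 and 9.88 with Kbr, against 8.75, 9.03 and 9.03 in controls. Kbr lay above control in every array of both times. The rise was 1.35-fold at 24 h (log2 0.43 ± 0.13 SE, adjusted p = 0.0266) and 2.17-fold at 48 h (log2 1.12 ± 0.13 SE, adjusted p = 3.19e-05). The 24 h call was lost without Kbr 24 h replicate 2 or 3 or control 24 h replicate 1 (adjusted p = 0.0805 to 0.107).

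XRCC2, also a strand exchange factor, read 6.64, 6.88 and 6.82 with Kbr at 24 h, against 6.26, 6.42 and 6.02 in controls. Its 48 h values were 6.99, 6.96 and 6.63 with Kbr, against 6.59, 6.82 and 6.20 in controls. The groups were apart at 24 h and overlapped at 48 h. XRCC2 was 1.46-fold higher at 24 h (log2 0.55 ± 0.17 SE, adjusted p = 0.0302), a call lost without Kbr 24 h replicate 2 or 3 or control 24 h replicate 1 or 3 (0.0713 to 0.0971) and without the filter on low values (0.0691). At 48 h the difference was 0.32 ± 0.17 (adjusted p = 0.126, and 0.0346 with the block). Its probe set also has the ending _x_at.

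RAD54L, a motor protein that drives strand exchange, read 8.43, 8.6 and 8.27 with Kbr at 24 h, against 8.23, 8.15 and 8.26 in controls. The arrays at 48 h gave 8.35, 8.37 and 8.33 with Kbr, against 7.64, 7.38 and 7.58 in controls. The 24 h groups were barely apart and those at 48 h clearly so. RAD54L was 1.76-fold higher at 48 h (log2 0.82 ± 0.10 SE, adjusted p = 6.48e-05) and differed by 0.22 ± 0.10 at 24 h (adjusted p = 0.132).

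Its relative RAD54B read 8.14, 8.22 and 7.78 with Kbr at 24 h, against 7.76, 8.13 and 7.75 in controls. At 48 h RAD54B read 8.34, 8.37 and 8.11 with Kbr, against 6.48, 7.01 and 7.47 in controls. The groups overlapped at 24 h and were apart at 48 h. RAD54B was 2.45-fold higher at 48 h (log2 1.29 ± 0.22 SE, adjusted p = 0.000504) and differed by 0.16 ± 0.22 at 24 h (adjusted p = 0.608). RAD51AP1, which promotes the joining of strands, was higher at 48 h by log2 0.91 ± 0.16 (adjusted p = 0.000464) and differed by 0.30 ± 0.16 at 24 h (adjusted p = 0.164).

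BRIP1, the helicase that partners BRCA1, read 8.23, 8.37 and 8.18 with Kbr at 24 h, against 8.73, 9.07 and 9.00 in controls. After 48 h the values were 8.12, 8.0 and 7.87 with Kbr, against 8.28, 8.38 and 8.59 in controls. Every Kbr array lay below every control array of its time. BRIP1 was 1.60-fold lower at 24 h (log2 -0.67 ± 0.12 SE, adjusted p = 0.00234) and 1.34-fold lower at 48 h (log2 -0.42 ± 0.12 SE, adjusted p = 0.0121), the second call being lost without control 48 h replicate 3 (adjusted p = 0.0507). With the mean of BRIP1's probe sets both calls were lost (adjusted p = 0.0581 at 24 h and 0.652 at 48 h).

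The remaining 4 strand exchange members had no call at either time. BRCA1 differed by log2 -0.36 ± 0.25 at 24 h and 0.38 ± 0.25 at 48 h (SE, adjusted p = 0.287 and 0.208), and its partner BARD1 by 0.11 ± 0.18 and 0.41 ± 0.18 (adjusted p = 0.697 and 0.0744, the second 0.00224 with the block). PALB2, which links BRCA1 to BRCA2, differed by -0.31 ± 0.18 and 0.11 ± 0.18 (adjusted p = 0.217 and 0.632). The strand exchange factor XRCC3 differed by 0.05 ± 0.18 and 0.33 ± 0.18 (adjusted p = 0.876 and 0.147).

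The Fanconi core complex was split: of 7 measured members FANCB rose and FANCL, FANCC and FANCF fell at 24 h, and at 48 h FANCB and FANCM rose while FANCL, FANCC, FANCE and FANCF fell. FANCB and FANCL belong to the same catalytic module of the complex, in which FANCL is the ubiquitin ligase. FANCB read 6.33, 7.14 and 6.52 with Kbr at 24 h, against 5.56, 5.84 and 5.88 in controls. Its 48 h values were 6.76, 6.90 and 7.07 with Kbr, against 4.05, 5.15 and 5.23 in controls. Neither pair overlapped, and control 48 h replicate 1 was the lowest value of any member. FANCB was 1.87-fold higher at 24 h (log2 0.90 ± 0.30 SE, adjusted p = 0.0376) and 4.28-fold higher at 48 h (log2 2.10 ± 0.30 SE, adjusted p = 0.000126).

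FANCL read 9.39, 9.35 and 8.87 with Kbr at 24 h, against 10.38, 10.29 and 9.84 in controls. The arrays at 48 h gave 9.45, 9.39 and 9.12 with Kbr, against 10.40, 10.41 and 10.18 in controls. The Kbr arrays lay below all control arrays at both times. FANCL was 1.95-fold lower at 24 h (log2 -0.96 ± 0.18 SE, adjusted p = 0.00247) and 2.01-fold lower at 48 h (log2 -1.01 ± 0.18 SE, adjusted p = 0.000567).

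FANCM, the motor protein that brings the core complex to DNA, read 6.53, 6.93 and 6.48 with Kbr at 24 h, against 6.00, 6.34 and 6.42 in controls. After 48 h the values were 6.99, 7.11 and 6.45 with Kbr, against 5.64, 5.74 and 5.79 in controls. The groups did not overlap at either time, with a narrow gap at 24 h. FANCM was 2.18-fold higher at 48 h (log2 1.13 ± 0.18 SE, adjusted p = 0.000353) and differed by 0.40 ± 0.18 at 24 h (adjusted p = 0.124).

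FANCC, FANCE and FANCF, which form one subcomplex, were lower at 48 h by log2 -0.64 ± 0.11, -0.47 ± 0.16 and -0.58 ± 0.18 (SE, adjusted p = 0.000548, 0.0273 and 0.0146). At 24 h FANCC and FANCF were lower by -0.32 ± 0.11 and -0.52 ± 0.18 (adjusted p = 0.0497 and 0.0430), and FANCE differed by -0.32 ± 0.16 (adjusted p = 0.154). FANCG, a further core subunit, differed by -0.24 ± 0.15 at 24 h and -0.06 ± 0.15 at 48 h (adjusted p = 0.234 and 0.760). FANCI, a substrate of the complex, differed by -0.02 ± 0.13 and 0.15 ± 0.13 (adjusted p = 0.940 and 0.358).

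Of the core complex calls at 24 h, those of FANCC, FANCB and FANCF were each lost without any of several single arrays. FANCC lost its call without any 1 array other than control 24 h replicate 3 or Kbr 48 h replicate 3 (adjusted p = 0.0571 to 0.175). Its call was also lost without the filter on low values, with the mean of probe sets, quantile normalization, a trended and robust prior or only the groups compared (0.0627 to 0.205). FANCB lost its call without Kbr 24 h replicate 2 or 3, any control 24 h array or Kbr 48 h replicate 2 (0.0501 to 0.137), and without the filter or with the mean of probe sets (0.0656 to 0.103). For FANCC and FANCB the mean of probe sets takes in sets that did not pass the filter. FANCF lost its call without Kbr 24 h replicate 1 or 3, control 24 h replicate 1 or 2, or replicate 2 of either 48 h group (0.0556 to 0.146), and without the filter, with quantile normalization or with the trended and robust prior (0.0515 to 0.0956). At 48 h FANCE lost its call without Kbr 48 h replicate 1 or control 48 h replicate 2 (0.102 to 0.104), without the filter, with quantile normalization or with array weights (0.0592 to 0.0772), and FANCF without Kbr or control 48 h replicate 3 (0.0549 to 0.0614).

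**Figure D2:**
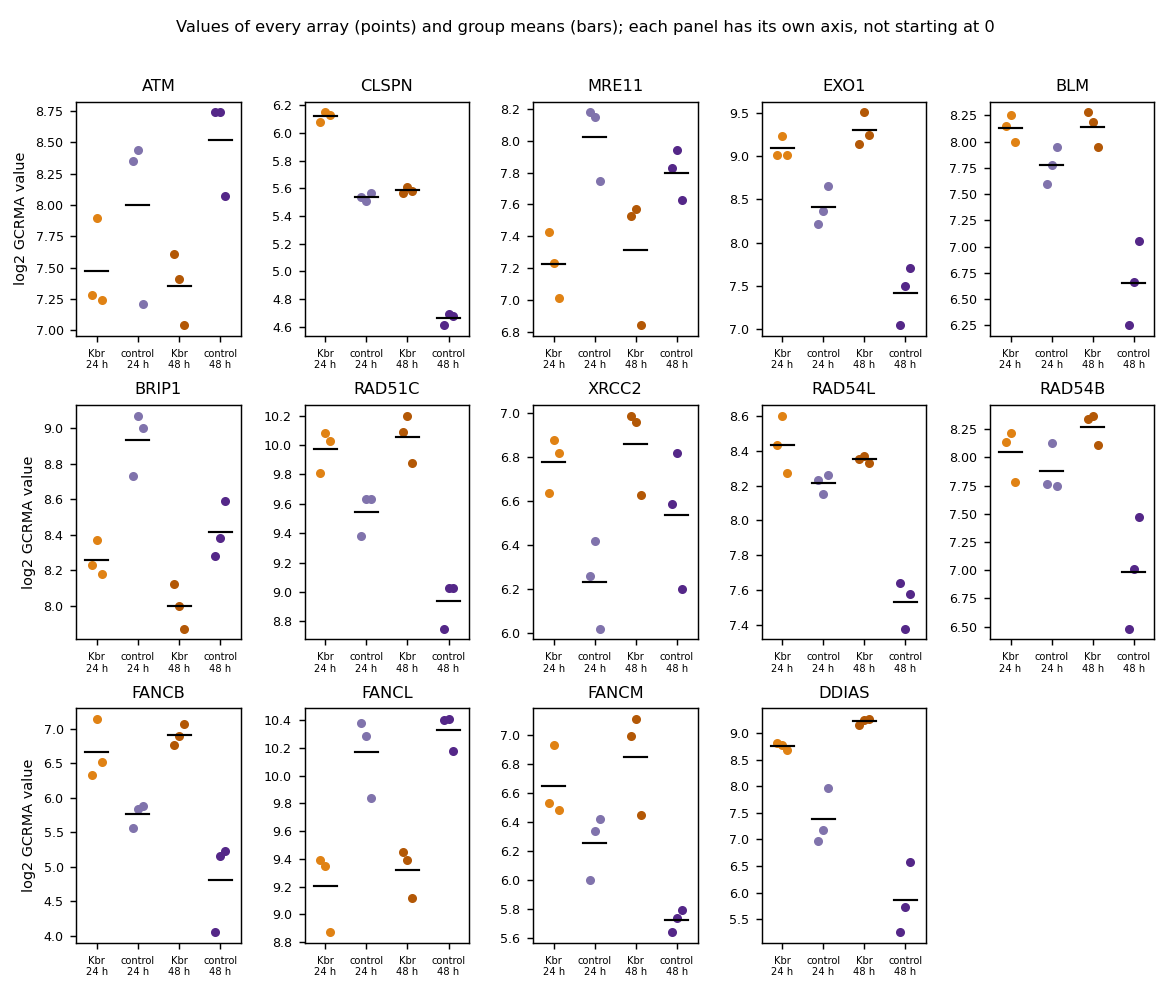
Log2 GCRMA values of the 14 members given array by array (vertical axis of each panel, with its own range that does not start at 0); points are the 3 arrays of a group and bars the group means, in the order 24 h with Kbr, 24 h control, 48 h with Kbr and 48 h control. In DDIAS, EXO1, BLM, RAD51C and RAD54B the control 48 h arrays are the lowest group, while in FANCL both Kbr groups lie below both control groups.

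The Kbr effect differed between the times in 4 members by the interaction test, all with a larger difference of Kbr over control at 48 h. Of all tested genes 2.09% were called in that direction and 3.49% in the other (5.58% in all). By definition, this difference of effects is the change with time in Kbr cultures minus that in control cultures. These changes were 0.46 and -1.52 for DDIAS and 0.22 and -1.0 for EXO1. For BLM they were 0.01 and -1.12, and for RAD54L -0.08 and -0.68. The difference of the effects was log2 1.98 ± 0.43 for DDIAS, 1.22 ± 0.25 for EXO1, 1.13 ± 0.26 for BLM and 0.60 ± 0.15 for RAD54L (SE, adjusted p = 0.0301, 0.0256, 0.0358 and 0.0440). No member was called with a lower effect at 48 h (0 by limma with the block too; 12 members had an unadjusted p under 0.05 in either direction), while ATM was called lower in its probe set 212672_at, log2 -0.66 ± 0.15, adjusted p = 0.0371. The median over the 32 members was 0.31, against 0.01 over all tested genes. With the replicate number as a block 9 members were called, against 8.83% of all tested genes called higher and 11.4% lower in that fit, RAD51C, RAD54B, CHEK2, CLSPN and FANCB being added (adjusted p = 0.0126, 0.0360, 0.0181, 0.0251 and 0.0264). The count was 0 to 10 when single arrays were left out: 0 without Kbr 24 h replicate 1 or 3, control 24 h replicate 3, Kbr 48 h replicate 2 or control 48 h replicate 2. It was 1 without Kbr 24 h replicate 2, Kbr 48 h replicate 1 or control 48 h replicate 1, 2 without control 24 h replicate 2, and 10 without Kbr 48 h replicate 3. Shares of all tested genes called without single arrays are not given, so whether this count moved with them cannot be told.

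In control cultures, every member called for a change with time was lower at 48 h than at 24 h. Between the control groups 7 members fell and 0 rose, where 2.3% of all tested genes fell and 1.73% rose (4.03% in all). DDIAS fell by 1.52 on the log2 scale, BLM by 1.12, EXO1 by 1.0, CLSPN by 0.88, RAD54L by 0.68, RAD51C by 0.61 and BRIP1 by 0.52 (SE 0.31, 0.18, 0.18, 0.07, 0.10, 0.13 and 0.12). The adjusted p-values were 0.0281, 0.0164, 0.0197, 0.000937, 0.0117, 0.0314 and 0.0450. The median over the 32 members was -0.27, against -0.03 over all tested genes, and 26 of the 32 differences were negative. An unadjusted p under 0.05 in either direction was found in 14 members. Control 48 h lay wholly below control 24 h in 16 members and wholly above it in 1, FANCC (14.6% and 12.3% of all tested genes).

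With the block 14 members were lower in control cultures at 48 h, against 12.2% of all tested genes lower and 8.63% higher in that fit, adding BARD1, RAD51AP1, RAD54B, NBN, ATR, FANCB and FANCG (adjusted p = 0.0255, 0.0396, 0.0224, 0.0333, 0.0284, 0.0160 and 0.0462). Fitted on the 6 control arrays alone and without the block, 0 of the 7 calls were kept (adjusted p = 0.0664 to 0.142). The count of falls was 1 without control 24 h replicate 3 or control 48 h replicate 2 and 3 without control 48 h replicate 1. For these smaller fits the shares of all tested genes are not given.

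This comparison and the Kbr comparison at 48 h share the control 48 h arrays, so their values are set side by side and no relation between them was tested. For DDIAS the mean at 48 h minus that at 24 h was 0.46 in Kbr cultures and -1.52 in control cultures. For EXO1 these changes were 0.22 in Kbr cultures and -1.0 in control cultures, and for FANCB 0.25 and -0.95. For BLM they were 0.01 in Kbr cultures and -1.12 in control cultures, and for RAD54B 0.23 and -0.90. CLSPN differed from these in that its mean was lower at 48 h in both treatments, by -0.54 in Kbr cultures and -0.88 in control cultures. For RAD54L the changes were -0.08 in Kbr cultures and -0.68 in control cultures. ATM, among the members that fell with Kbr, changed by -0.12 in Kbr cultures and 0.52 in control cultures (adjusted p = 0.388 for the control change), and FANCL by 0.12 and 0.16. The changes in Kbr cultures were not tested.

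**Figure D3:**
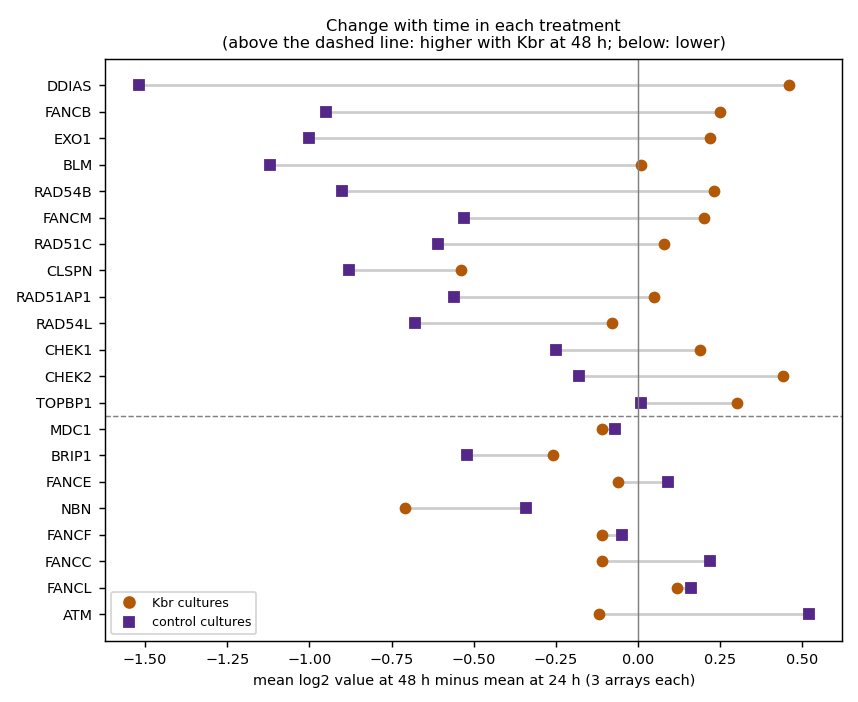
Mean log2 value at 48 h minus that at 24 h (horizontal axis, 3 arrays each) for the 21 members called at 48 h, with circles for Kbr cultures and squares for control cultures; members above the dashed line were higher with Kbr at 48 h and those below it lower. The members were placed by a comparison that uses the same 48 h arrays. The DDIAS symbols are farthest apart, at 0.46 with Kbr and -1.52 in controls.

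Probe sets of one member did not always read alike. The 32 members had 73 single-gene probe sets, of which 58 passed the filter, and 16 members had more than 1. In a fit of every such probe set, chosen after seeing the data, no member had probe sets called in opposite directions. Signs differed in BARD1 and MDC1 at 24 h and in BARD1, BRIP1, RAD50 and TP53BP1 at 48 h.

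RAD50 and TP53BP1 changed most with the choice. RAD50 probe set 238656_at averaged 5.35 with Kbr and 6.08 in controls at 24 h, and 5.04 with Kbr and 6.48 in controls at 48 h. It was lower by log2 -0.73 ± 0.23 at 24 h and -1.44 ± 0.23 at 48 h (SE, adjusted p = 0.0346 and 0.000303), and 209349_at by -0.65 ± 0.14 and -0.68 ± 0.14 (adjusted p = 0.00793 and 0.00207), while the set used for RAD50 had no call. TP53BP1 probe set 213266_at read 4.97, 5.5 and 6.34 with Kbr at 48 h, against 7.63, 7.90 and 7.35 in controls. That is a difference of log2 -2.03 ± 0.28 (adjusted p = 0.000129), where the set used for TP53BP1 differed by -0.14.

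ATM's 2 other tested sets differed in precision, 1 with a smaller and 1 with a larger SE than the set used. Probe set 212672_at read 6.27, 6.5 and 6.38 with Kbr at 24 h, against 7.29, 7.22 and 7.03 in controls. Its 48 h values were 6.32, 6.08 and 6.25 with Kbr, against 7.70, 7.62 and 7.71 in controls. Neither pair overlapped, and ATM was lower in this set at both times, by log2 -0.80 ± 0.11 at 24 h and -1.46 ± 0.11 at 48 h (adjusted p = 0.000675 and 2.88e-06). In control cultures this set was higher at 48 h than at 24 h by 0.50 ± 0.11 (adjusted p = 0.0442). The third ATM set, 208442_s_at, differed by -0.74 ± 0.44 and -1.75 ± 0.44 (adjusted p = 0.235 and 0.00561).

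FANCB's 3 sets differed by log2 1.97 to 2.13 at 48 h, each with a call, and the 2 of RAD51C by 1.12 and 1.18. FANCF's second set, 218689_at, was lower by -0.84 ± 0.14 at 24 h and -1.02 ± 0.14 at 48 h (adjusted p = 0.00184 and 0.000114). In this wider fit the FANCF set used had an adjusted p of 0.0514 at 24 h. BARD1 set 227545_at was higher by 0.74 ± 0.13 at 48 h (adjusted p = 0.000501), and 242655_at differed by -0.17 ± 0.16 (adjusted p = 0.399).

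**Figure D4:**
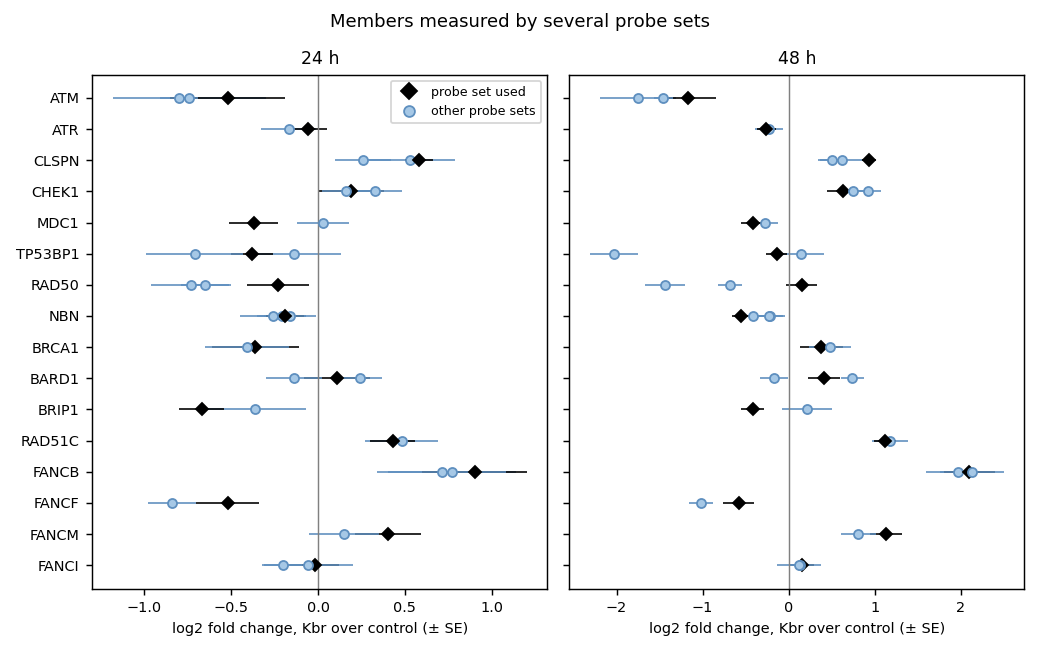
Log2 fold change of Kbr over control with its SE (horizontal axis) in every tested probe set of the 16 members with more than 1, at 24 h (left) and 48 h (right), with diamonds for the probe set used and circles for the others. At 48 h the RAD50 and TP53BP1 circles at -1.44 and -2.03 lie far from their diamonds at 0.15 and -0.14.

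Other genes of the same pathways were called at 24 h at about the rate of all genes. Of 83 listed, 76 were tested: 9 rose and 14 fell at 24 h (11.8% and 18.4%, against 12.4% and 20.0% of all tested genes). At 48 h 30 rose and 20 fell (39.5% and 26.3%, against 26.9% and 32.8%), with medians of -0.01 at 24 h and 0.11 at 48 h. At both times the largest rises included POLQ, the polymerase of an error-prone end joining (log2 1.06 ± 0.25 at 24 h and 1.74 ± 0.25 at 48 h, adjusted p = 0.00943 and 0.000166). They also included HUS1, part of the checkpoint clamp (0.75 ± 0.16 and 1.72 ± 0.16), and CDC25A, the phosphatase that CHEK1 restrains (0.80 ± 0.17 and 1.69 ± 0.17). RMI2, a partner of BLM, was lower at both times (-1.57 ± 0.18 and -1.59 ± 0.18), as were the strand exchange factor RAD51B (-1.16 ± 0.21 and -1.87 ± 0.21) and NSMCE4A of the SMC5-SMC6 complex (-0.94 ± 0.12 and -1.11 ± 0.12).

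The Fanconi partner FAAP20 was lower at 48 h (-2.07 ± 0.37, adjusted p = 0.000683) and had no call at 24 h (-0.91 ± 0.37, adjusted p = 0.0836). ABRAXAS1, a scaffold of a BRCA1 complex, was lower at both times (-0.59 ± 0.15 and -1.70 ± 0.15). By group, the strand exchange, junction and helicase genes counted 12 rises and 4 falls of 26 tested at 48 h, and the Fanconi partners 2 rises and 6 falls of 14.

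Genes of the cell cycle moved in these cultures too, and their part in the members' changes was not tested. Of 28 genes of G2 and mitosis, 15 rose and 0 fell at 24 h, and 23 rose and 1 fell at 48 h, with medians of 0.37 and 0.66 (17 and 25 with an unadjusted p under 0.05 in either direction). The rises were 53.6% at 24 h and 82.1% at 48 h, against 12.4% and 26.9% of all tested genes. PLK1 and KIF23 rose most at 24 h (0.82 ± 0.24 and 0.79 ± 0.19) and CCNB1 and TTK at 48 h (1.19 ± 0.15 and 1.09 ± 0.15), while KIF20A was lower at 48 h (-0.74 ± 0.20). In control cultures 16 of the 28 were lower at 48 h than at 24 h and 0 higher (2.3% and 1.73% of all tested genes), with a median of -0.62.

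Of 38 tested replication genes, 3 rose and 11 fell at 24 h, and 9 rose and 9 fell at 48 h, with medians of -0.19 and 0.07. At 24 h these were 7.9% and 29%, against 12.4% and 20.0% of all tested genes. At 48 h they were 23.7% each, below the 26.9% and 32.8% of all tested genes. The origin factors CDC6 and MCM10 rose at both times, by 0.77 ± 0.26 and 0.91 ± 0.23 at 24 h and by 2.80 ± 0.26 and 2.66 ± 0.23 at 48 h. The polymerase genes POLD1, POLA1 and PRIM1 fell at both times, with log2 fold changes of -1.08, -0.93 and -0.86 at 24 h and -1.21, -1.02 and -1.12 at 48 h. In control cultures 11 of the 38 were lower at 48 h and 0 higher (2.3% and 1.73% of all tested genes), with a median of -0.36.

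**Figure D5:**
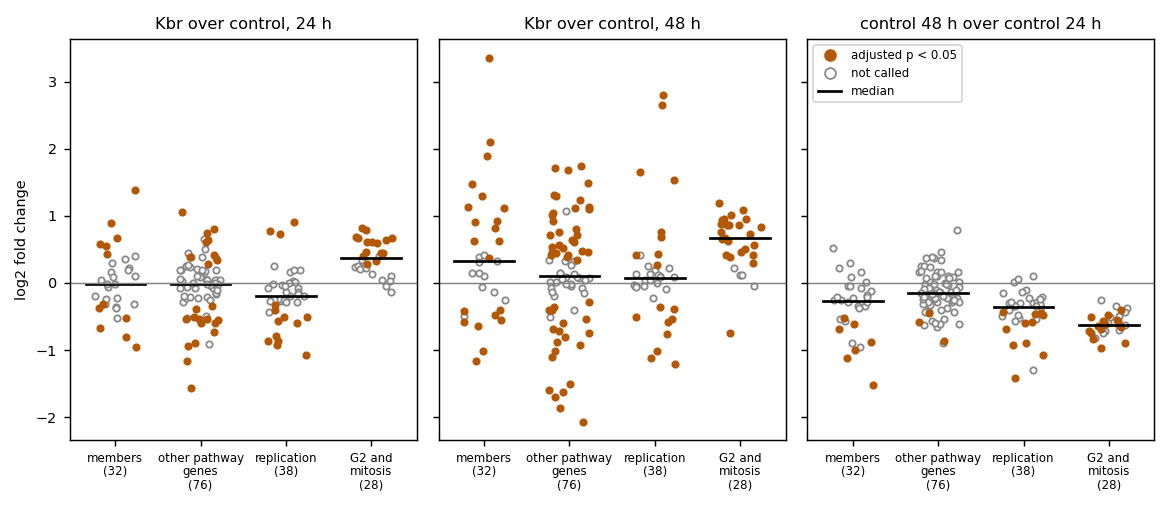
Log2 fold change (vertical axis) of each tested gene in 4 lists, for Kbr over control at 24 h, Kbr over control at 48 h and control 48 h over control 24 h; filled points had an adjusted p under 0.05, and bars are medians. At 48 h the medians are 0.32 for the members, 0.11 for other pathway genes, 0.07 for replication and 0.66 for G2 and mitosis, and in the control comparison all 4 medians lie below 0.

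Fibroblast markers moved as well, as did those of proximal tubule and kidney epithelium. Of 6 fibroblast markers COL1A1, DCN and LUM passed the filter and all 3 fell with Kbr at both times. The log2 of the summed level of all 6 fibroblast markers, those under the filter included, was taken for each array. It lay between 11.42 and 11.83 with Kbr and between 12.37 and 12.88 in controls at 24 h. At 48 h it lay between 10.18 and 10.60 with Kbr and between 12.28 and 12.34 in controls. The summed level of the proximal tubule list lay between 11.45 and 12.05 with Kbr and 12.66 and 13.11 in controls at 24 h, and between 10.14 and 10.63 with Kbr and 12.56 and 13.17 in controls at 48 h. That of kidney epithelium lay between 14.34 and 14.58 with Kbr and 14.72 and 14.95 in controls at 24 h, and between 14.31 and 14.47 with Kbr and 14.57 and 14.90 in controls at 48 h, so that every Kbr array was below every control array of its time. Of its 7 tested markers 1 rose and 2 fell at 24 h and 2 rose and 5 fell at 48 h. Endothelial markers summed to 5.42 to 5.63, with 1 of 5 over the filter, and no leukocyte marker of 5 passed it (summed 4.49 to 4.62). The part of these shifts in the members' results was not tested.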

How the data were processed

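The authors deposited log2 values of 12 arrays that were processed with GCRMA, which corrects background by probe sequence, normalizes between arrays and condenses each probe set, per the submitters' processing notes; its version, the array build and detection calls were not given in the sources used here. The platform's annotation gave 54675 probe sets, 41091 with 1 gene symbol, 1801 with several, 11721 with none and 62 Affymetrix controls; 0 symbols needed updating from RefSeq. The brightest single-gene probe set on average stood for its gene, and a gene was tested where at least 3 arrays were over a log2 value of 4 (10574 kept, 9201 left out).

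Two-sided tests used limma 3.58.1 (R 4.3.3; lmFit, then eBayes) on the 12 arrays together, with 8 degrees of freedom left for the residuals and a prior worth 2.87; p-values were adjusted per comparison by Benjamini-Hochberg over every tested gene and called under 0.05. Tested on simulated data at 24 h, the procedure recovered 149 of 200 genes changed by log2 1 (74.5%), with 9 false calls over 10574 genes. The simulated noise was independent between arrays, with no replicate effect, and only those 200 genes changed. In the data 32.4% of tested genes were called at 24 h, so these rates hold for the simulated setting only. The number of arrays limits the precision.

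The labels number the replicates 1 to 3 in every group. Over all tested genes, deviations from the group mean correlated at 0.232 to 0.633 in 18 same-numbered pairs and at -0.378 to -0.0042 in 36 pairs of different number, so the numbers pair the arrays, and a fit blocked on the number, with 6 degrees of freedom for the residuals, is given where it changes a call. Values not named as blocked, and every other alternative, came from fits that leave this pairing out. Losses of calls without single arrays were not examined in the blocked fit. Alternatives covered the filter, an offset of 32, normalization, the probe set chosen, the prior, array weights, the arrays fitted, the threshold and each array left out. The mean of a gene's probe sets took in any set that did not pass the filter by itself. Arrays were given one by one for the 8 members with the largest called changes at each time and those called in the interaction. Of the other pathway genes, the 3 largest called rises and falls at each time were named, and of the cell cycle lists the 2 largest. The members and lists were chosen with earlier results of these data known. Tables used pandas 2.3.3 and figures matplotlib 3.10.9, both under Python 3.11.15.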

Additional observations from a re-analysis of the deposited data

Results flagged for a closer look

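In 4 members the Kbr effect differed between 48 h and 24 h by the interaction test: DDIAS by log2 1.98, EXO1 by 1.22, BLM by 1.13 and RAD54L by 0.60 (adjusted p = 0.0301, 0.0256, 0.0358 and 0.0440, limma over all tested genes). In the fit without the block, these calls lay near the threshold, and many single omissions ended them with the sign of the difference kept. Leaving out 1 array ended the call of DDIAS in 8 of 12 cases (adjusted p = 0.0591 to 0.0701) and EXO1 in 5 (0.0502 to 0.0681). It ended that of BLM in 9 (0.0591 to 0.0916) and RAD54L in 11 (0.0504 to 0.107). Without the filter on low values DDIAS, EXO1 and BLM were not called (0.0545 to 0.0760), nor was RAD54L with a trended and robust prior (0.0512). Kbr 48 h replicate 3 was the 1 array whose omission ended none of the 4.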

How the results depend on the processing

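The 48 h counts of members were the most stable: 11 to 17 rises and 6 to 9 falls when each array was left out, against 13 and 8. At an adjusted p under 0.01 the falls at 48 h were 4, the rises and falls at 24 h 2 and 2, the interaction rises 0 and the control falls over time 1. At 24 h, leaving out single arrays gave 2 to 6 rises and 3 to 7 falls: rises were 2 without Kbr 24 h replicate 2 or control 24 h replicate 1 and 3 without Kbr 24 h replicate 3, and falls were 3 without Kbr 24 h replicate 3 or control 24 h replicate 1 or 2. Falls at 24 h were also 3 with the mean of all probe sets and 3 with quantile normalization. Interaction rises were 2 without a filter, 9 with array weights and 9 with the replicate block, and 0 to 10 without single arrays; interaction falls were 1, ATM, with unsuffixed probe sets preferred and 0 to 0 without single arrays. Control rises over time were 1 with unsuffixed probe sets, again ATM, and 0 to 0 without single arrays; control falls were 4 without a filter, 0 fitted on control arrays alone, 14 with the replicate block and 1 to 9 without single arrays. The causes of these shifts were not tested. Apart from the block, shares of all tested genes called under these alternatives are not given, so whether the counts moved with those shares cannot be told. Over 44 results for single members, 1047 recomputed values held 879 unchanged calls, 168 lost calls and 0 turned directions, and 17 results kept their call in every setting. Among 29 values of other probe sets, 16 lost the call and 1 turned direction, BRIP1 set 221703_at at 48 h (log2 0.21, adjusted p = 0.571). The block changed no call other than those given with the results, all of them gains.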
